A study of Homo sapiens with 4 samples.

Results

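SR proteins, heterogeneous nuclear ribonucleoproteins (hnRNPs) and the CDC-like kinases (CLKs) were taken as a set of splicing regulators in hTERT RPE-1 cells, an immortalized human line of retinal pigment epithelium origin. The members are the protein-coding genes with a current NCBI symbol of the form SRSF plus a number, TRA2A, TRA2B, HNRNP, or CLK1 to CLK4. Of the 23459 genes listed in the count tables, 41 met this rule, namely 11 SRSF, 2 TRA2, 24 HNRNP and 4 CLK genes. A further 3 genes with such symbols, SRSF8, HNRNPA1L3 and HNRNPCL4, were not analysed here. All cells were wild type, held for 48 h in medium with 0.1% serum, and then given 200 μM merbarone, a catalytic inhibitor of DNA topoisomerase II. RNA-Seq was performed after 4 h (2 libraries) and after 8 h (2 libraries). Neither untreated cells nor shorter exposures were analysed here. Time of exposure cannot be told apart from time in low-serum medium. The labels name replicates and do not say whether they were separate cultures. The study's text calls them biological replicates.

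SR proteins bind exonic enhancers in pre-mRNA through RNA recognition motifs and recruit the splicing machinery through a domain rich in arginine and serine, the RS domain. TRA2A and TRA2B are closely related RS-domain proteins. hnRNPs coat nascent transcripts, often oppose SR proteins at splice sites, and also take part in RNA export, stability and translation. CLKs phosphorylate the RS domain in the nucleus and so control the release of SR proteins from nuclear speckles. Many SR and hnRNP genes limit their own level by splicing in exons with an early stop codon, whose transcripts are removed by nonsense-mediated decay (NMD).

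The libraries held between 8064450 and 10324697 counts, the largest depth being that of a 4 h library and the smallest that of an 8 h library. Values are given as CPM, counts scaled to a common library size with TMM factors. A gene was tested, with edgeR's quasi-likelihood test, where 2 or more libraries exceeded a CPM of 1, and a gene was said to rise or fall where its p, adjusted by Benjamini-Hochberg over all 12559 retained genes, was below 0.05. DEGs had in addition an absolute log2 fold change (log2FC) above 1. Markers of mature pigment epithelium were largely absent, since only 4 of 12 passed the CPM filter. TYR and DCT had no count in any library and RPE65 had between 2 and 7 counts, whereas MITF had between 669 and 882. Of 10 blood, endothelial and neural markers, 1 passed the filter, SYP, with 14 to 26 counts.

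Transcripts of 10 of the 12 tested SRSF and TRA2 genes and of 10 of the 20 tested hnRNP genes fell from 4 h to 8 h, while those of 3 of the 4 CLK genes rose. Of the 36 genes that passed the CPM filter, 20 fell and 5 rose. Among all retained genes 18.8% fell and 19.9% rose. The median log2FC was −0.28 for the 36 genes and −0.0024 for all genes. None of the 36 was a DEG in edgeR, Limma-Voom or DESeq2, against 5.33% of all genes in edgeR (1.45% higher and 3.88% lower), whereas 26 had an unadjusted edgeR p below 0.05 whatever their fold change (47.3% of all genes). Both 8 h libraries lay below both 4 h libraries for 24 of the 36 genes and above them for 9 (34.9% and 34.8% of all genes, respectively), and the times overlapped for 3. The passing genes were abundant, with a lowest CPM of 7.13 in any library. Their median of mean log2-CPM was 7.02, against 4.91 for all genes. With scaling by library size alone, which moved the median log2FC of all genes to −0.11, 23 fell and 2 rose (26.2% and 13.5% of all genes). With a correction for the trend of log2FC with abundance, 23 fell and 3 rose (18.4% and 18.1% of all genes).

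**Figure D1:**
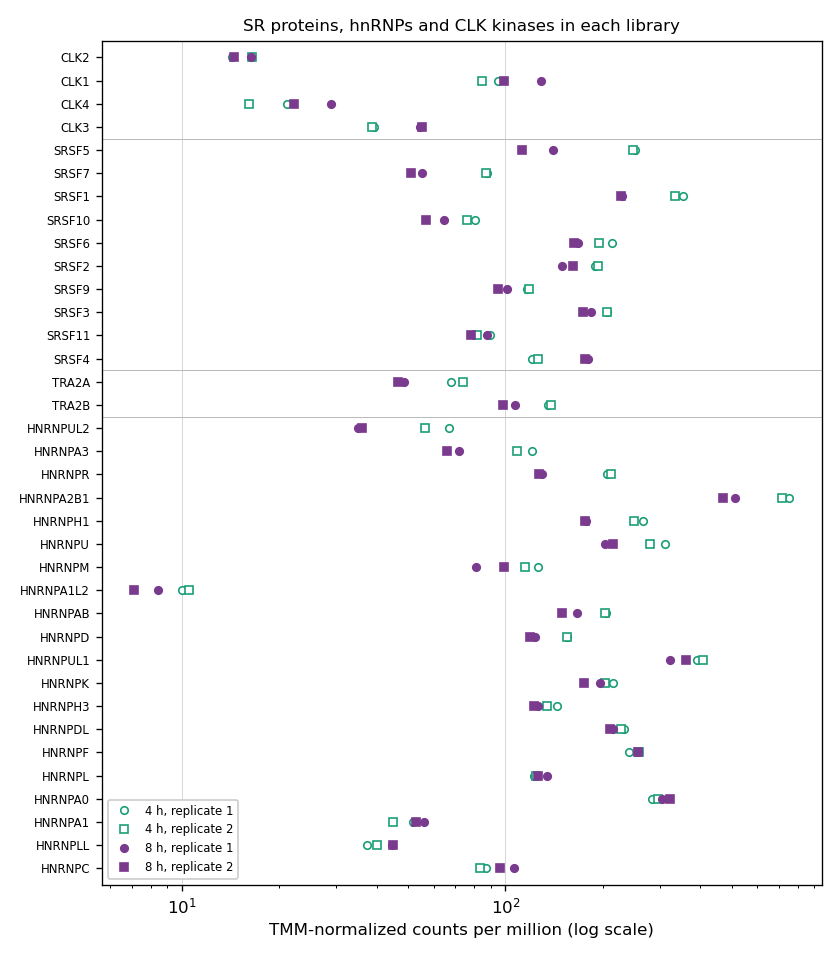
TMM-normalized CPM (log scale) of the 36 tested genes in each library, with 4 h as open green symbols and 8 h as filled purple symbols (circles, replicate 1; squares, replicate 2). Genes are ordered by family and log2FC. The filled symbols lie to the left of the open symbols for most SRSF, TRA2 and HNRNP genes. They lie to the right for CLK1, CLK3, CLK4, SRSF4, HNRNPC, HNRNPL, HNRNPA0, HNRNPA1 and HNRNPLL.

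The other 5 genes of the 41 did not pass the filter. HNRNPCL1, HNRNPCL2 and HNRNPCL3, retrocopies related to HNRNPC, had no count in any library. SRSF12 had 4 and 5 counts at 4 h and 2 and 0 at 8 h. HNRNPH2 had 3 and 2 counts at 4 h and 2 and 1 at 8 h, and lies within the readthrough gene RPL36A-HNRNPH2 on the same strand. Reads that cannot be given to only 1 gene or position may be missing from it.

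Among the SR proteins, 8 of 10 tested SRSF genes fell and 1 rose. Their median log2FC was −0.30. SRSF5 (chromosome 14, 70193617 to 70238722, plus strand, GRCh37), one of the SR proteins whose transcript responds to growth signals, had the largest log2FC in size of the 36 genes. Its 4 h libraries had a CPM of 251 and 248 and its 8 h libraries of 140.3 and 113. Both 8 h libraries were thus far below both 4 h libraries, and they also differed from each other (log2FC −0.98, standard error 0.09, edgeR adjusted p = 1.36e-07). Without replicate 1 of 8 h the log2FC was −1.15, which is past the DEG threshold, and without replicate 2 it was −0.83.

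SRSF7 (chromosome 2, 38970741 to 38978636, minus strand), which acts in splicing and in mRNA export, had a CPM of 87.7 and 87.1 at 4 h and of 55.2 and 51.2 at 8 h. The replicates were close at both times and the times did not overlap (log2FC −0.71, standard error 0.09, edgeR adjusted p = 7.45e-06). SRSF1 (chromosome 17, 56078280 to 56084707, minus strand), the founding member of the family, was at 353 and 334 at 4 h and at 228 in both 8 h libraries. The 8 h libraries agreed closely and lay below both 4 h libraries (log2FC −0.59, standard error 0.07, edgeR adjusted p = 5.22e-06).

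Smaller falls were measured for SRSF10 and SRSF6. SRSF10 (chromosome 1, 24290837 to 24307417, minus strand), which represses splicing in its dephosphorylated form, had a CPM of 80.7 and 76.0 at 4 h and of 64.6 and 56.8 at 8 h (log2FC −0.37, standard error 0.10, edgeR adjusted p = 0.00551). SRSF6 (chromosome 20, 42086533 to 42094686, plus strand), a close relative of SRSF4 and SRSF5, had 214 and 195 at 4 h and 167 and 163 at 8 h (log2FC −0.31, standard error 0.08, edgeR adjusted p = 0.00469). For both genes all 8 h values were below all 4 h values, but neither passed without replicate 1 of 4 h (edgeR adjusted p = 0.073 and 0.101, respectively).

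SRSF4 (chromosome 1, 29474255 to 29508412, minus strand) went the other way. Its 4 h libraries had a CPM of 121 and 126 and its 8 h libraries of 179.7 and 176, so that it rose 1.44-fold while its relatives SRSF5 and SRSF6 fell. The replicates differed little at either time (log2FC 0.53, standard error 0.08, edgeR adjusted p = 3.68e-05), and the rise passed in each of the 12 refits with another test, scaling or filter, with the replicate block or without 1 library, with log2FC from 0.42 to 0.56.

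The remaining SRSF genes changed less. SRSF2, which acts at constitutive and alternative exons, fell by 0.30 on the log2 scale (edgeR adjusted p = 0.00552). SRSF9 fell by 0.26 (edgeR adjusted p = 0.0182) and SRSF3, the smallest SR protein, by 0.20 (edgeR adjusted p = 0.0423). These last calls were close to the threshold. SRSF9 and SRSF3 did not pass in DESeq2 (adjusted p = 0.0695 and 0.11), nor without either 4 h library or without replicate 2 of 8 h (edgeR adjusted p from 0.0675 to 0.182), and SRSF3 did not pass without a CPM filter (edgeR adjusted p = 0.0568). With library size alone and with the abundance correction the log2FC of SRSF3 was −0.31 and −0.32. SRSF2 did not pass without replicate 2 of 4 h (edgeR adjusted p = 0.0675). SRSF11, an atypical SR-related protein, had a CPM of 89.7 and 81.9 at 4 h and of 87.6 and 78.0 at 8 h. Its times overlapped (log2FC −0.05, standard error 0.09, edgeR adjusted p = 0.708).

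Both TRA2 genes fell. TRA2A (chromosome 7, 23544399 to 23571660, minus strand) had a CPM of 67.7 and 73.7 at 4 h and of 48.4 and 46.7 at 8 h (log2FC −0.57, standard error 0.10, edgeR adjusted p = 0.000153). TRA2B (chromosome 3, 185632346 to 185655891, minus strand) had 135 and 138 at 4 h and 107 and 98.1 at 8 h (log2FC −0.41, standard error 0.08, edgeR adjusted p = 0.000695). The times did not overlap for either gene, and both passed in each of the 12 refits.

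**Figure D2:**
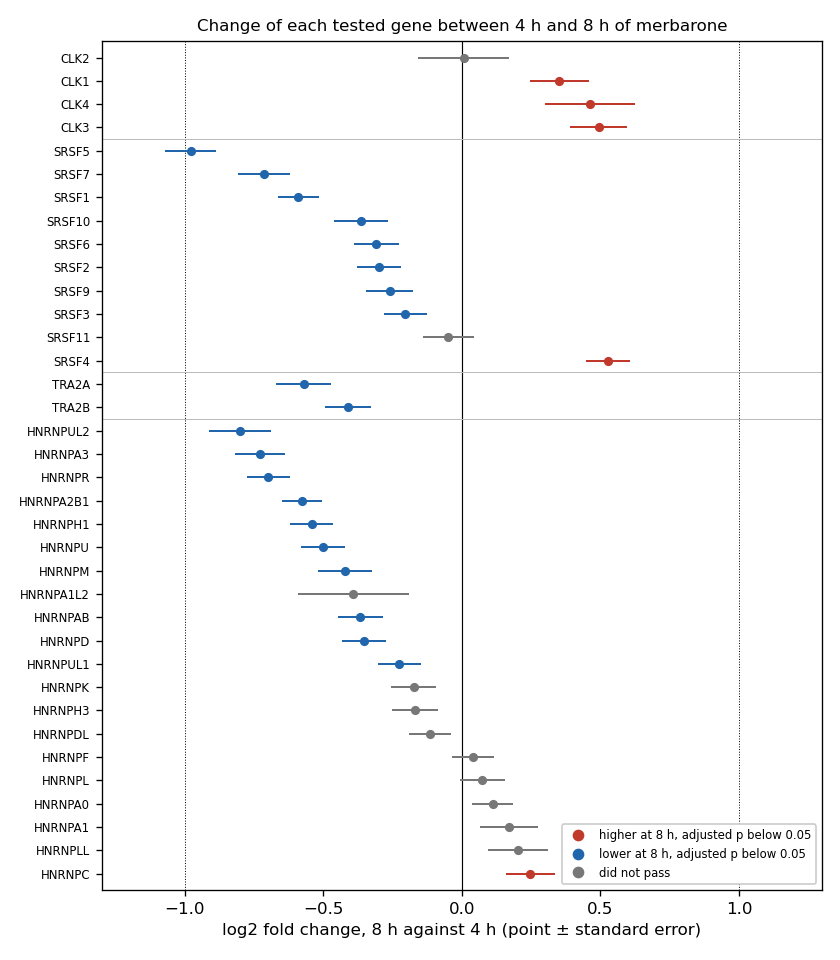
Log2FC of the 36 tested genes, 8 h against 4 h, as points with bars of 1 standard error. Blue genes fell, red genes rose and grey genes did not pass the adjusted p threshold. Dotted lines mark the log2FC of −1 and 1 that DEGs exceed, and no point lies beyond them.

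Among the hnRNPs, 10 of 20 tested genes fell and 1 rose, with a median log2FC of −0.29. HNRNPUL2 (chromosome 11, 62480102 to 62494929, minus strand), which takes part in the DNA damage response, showed the largest fall of the family. Its 4 h libraries had a CPM of 67.0 and 56.5 and its 8 h libraries of 35.0 and 35.9, without overlap (log2FC −0.80, standard error 0.11, edgeR adjusted p = 1.53e-05). The readthrough gene HNRNPUL2-BSCL2 spans the same exons and is listed with no count in any library.

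HNRNPA3 (chromosome 2, 178077422 to 178088687, plus strand), an RNA-trafficking relative of hnRNP A2, was at 120.5 and 108 at 4 h and at 71.8 and 66.1 at 8 h (log2FC −0.73, standard error 0.09, edgeR adjusted p = 4.99e-06). HNRNPR (chromosome 1, 23630264 to 23670829, minus strand) was at 205 and 211 at 4 h and at 129.7 and 127 at 8 h (log2FC −0.70, standard error 0.08, edgeR adjusted p = 1.23e-06). The 8 h values of both were about as close to each other as the 4 h values, and well apart from them. HNRNPA2B1 (chromosome 7, 26210771 to 26241149, minus strand), a core hnRNP particle protein, had a CPM of 754 and 715 at 4 h and of 513 and 472 at 8 h, again without overlap (log2FC −0.58, standard error 0.07, edgeR adjusted p = 4.87e-06).

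HNRNPH1 (chromosome 5, 179041179 to 179061785, minus strand), which binds G-rich elements, was at 265 and 249 at 4 h and at 178 and 176 at 8 h (log2FC −0.54, standard error 0.08, edgeR adjusted p = 1.98e-05). HNRNPU (chromosome 1, 245003940 to 245027862, minus strand), also called SAF-A, a scaffold attachment protein of chromatin, was at 310.3 and 279.9 at 4 h and at 203 and 214 at 8 h (log2FC −0.50, standard error 0.08, edgeR adjusted p = 6.07e-05). Neither gene had overlapping times.

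HNRNPM (chromosome 19, 8509651 to 8553998, plus strand), a splicing regulator, was at 126 and 115 at 4 h and at 81.2 and 99.1 at 8 h. Its 8 h libraries lay apart from each other, but both were below the 4 h libraries (log2FC −0.42, standard error 0.10, edgeR adjusted p = 0.00188). HNRNPA1L2 (chromosome 13, 53216566 to 53217908, plus strand), an intronless copy of HNRNPA1, had the lowest CPM of the set, with 10.02 and 10.5 at 4 h and 8.43 and 7.13 at 8 h. Its times did not overlap, but at this depth the difference did not pass (log2FC −0.39, standard error 0.20, edgeR adjusted p = 0.129). Leaving out replicate 1 of 8 h moved the log2FC of HNRNPM to −0.28 (edgeR adjusted p = 0.0193).

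HNRNPAB, HNRNPD (also called AUF1, which binds AU-rich elements) and HNRNPUL1 fell by 0.37, 0.35 and 0.23 on the log2 scale (edgeR adjusted p = 0.00134, 0.00168 and 0.0252, respectively). The call of HNRNPUL1 was lost in DESeq2 (adjusted p = 0.0608) and without either 4 h library or without replicate 1 of 8 h (edgeR adjusted p from 0.0792 to 0.204). Its log2FC was −0.15 without the last and −0.37 with the abundance correction. HNRNPC, which binds uridine tracts, was the hnRNP that rose, from 86.9 and 83.7 to 106 and 95.9 CPM (log2FC 0.25, standard error 0.09, edgeR adjusted p = 0.0323). That call was lost in DESeq2, with library size alone and with the abundance correction (adjusted p = 0.107, 0.22 and 0.193), and without either 4 h library or without replicate 1 of 8 h (edgeR adjusted p from 0.12 to 0.196). The log2FC of HNRNPC was 0.14 and 0.15 under these scalings.

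The other 8 hnRNP genes did not pass and had a log2FC between −0.17 and 0.20. HNRNPF, which is close to HNRNPH1 in sequence, was at 241 and 259 at 4 h and at 256 and 257 at 8 h (log2FC 0.04, standard error 0.08, edgeR adjusted p = 0.706). HNRNPL, HNRNPA0, HNRNPA1 and HNRNPLL had both 8 h values above both 4 h values, with log2FC of 0.07, 0.11, 0.17 and 0.20. HNRNPK, HNRNPH3 and HNRNPDL had both below, with −0.17, −0.17 and −0.12. The sign for HNRNPF and HNRNPL turned with library size alone and with the abundance correction, and that for HNRNPA0 with the latter. HNRNPK, HNRNPH3 and HNRNPDL passed as lower under both of these scalings.

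Of the 4 CLK genes, 3 rose, and CLK2 did not pass. CLK3 (chromosome 15, 74890841 to 74937755, plus strand) had a CPM of 39.2 and 38.7 at 4 h and of 54.4 and 55.3 at 8 h. The replicates nearly coincided at both times, and the rise was 1.41-fold (log2FC 0.49, standard error 0.10, edgeR adjusted p = 0.000823). It passed in each of the 12 refits. CLK1 (chromosome 2, 201717732 to 201729414, minus strand), the founding kinase of the family, was at 95.0 and 84.4 at 4 h and at 129 and 99.1 at 8 h (log2FC 0.35, standard error 0.11, edgeR adjusted p = 0.0136).

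CLK4 (chromosome 5, 178029665 to 178057616, minus strand), the closest relative of CLK1, was at 21.1 and 16.2 at 4 h and at 28.9 and 22.2 at 8 h (log2FC 0.46, standard error 0.16, edgeR adjusted p = 0.0288). For CLK1 and CLK4 the lower 8 h library was only just above the higher 4 h library, and in both genes replicate 1 was the higher library at each time. Without replicate 2 of 4 h the log2FC was 0.27 for CLK1 and 0.29 for CLK4 (edgeR adjusted p = 0.171 and 0.31). Without replicate 1 of 8 h it was 0.14 and 0.25 (edgeR adjusted p = 0.273 and 0.276). With library size alone the adjusted p was 0.0739 and 0.0832, with the abundance correction CLK1 was at 0.0735, and CLK4 did not pass in DESeq2 (adjusted p = 0.105). CLK2 (chromosome 1, 155232659 to 155248282, minus strand) had 14.3 and 16.5 at 4 h and 16.3 and 14.5 at 8 h. Its times overlapped fully (log2FC 0.0072, standard error 0.16, edgeR adjusted p = 0.977), and its sign turned with library size alone.

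**Figure D3:**
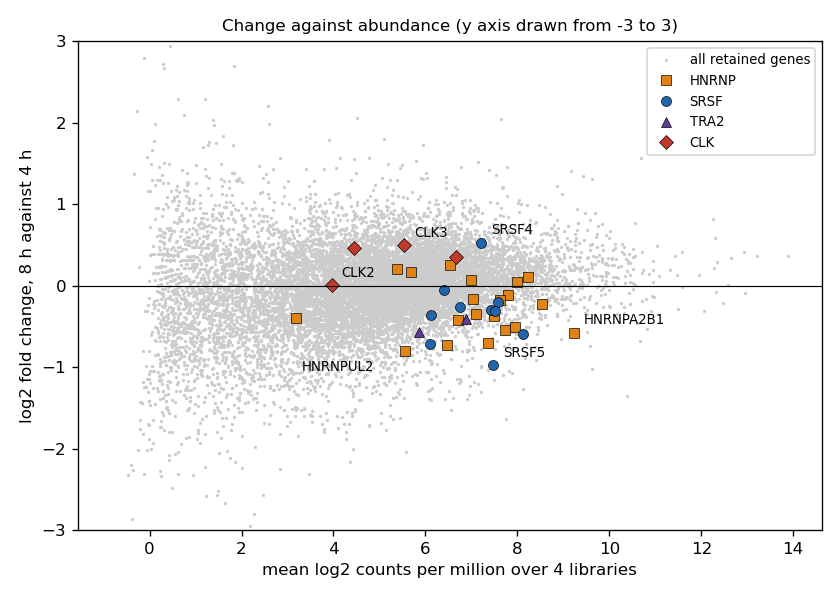
Log2FC (8 h against 4 h) against mean log2-CPM over the 4 libraries for all 12559 retained genes (grey dots) and for the HNRNP, SRSF, TRA2 and CLK genes (coloured symbols). The y axis is drawn from −3 to 3 and leaves out 6 genes. Most HNRNP, SRSF and TRA2 symbols lie below 0 at a mean log2-CPM of about 6 to 8. SRSF4, some HNRNP symbols and 3 CLK symbols lie above 0.

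Levels were compared between genes after division by the length of the canonical transcript, as CPM per kilobase. By this measure SRSF5 was the most abundant SRSF transcript at 4 h, with 168 and 166 CPM per kilobase, ahead of SRSF9 (101 and 103) and SRSF2 (100.4 and 103). At 8 h these genes were no longer apart. SRSF5 stood at 93.8 and 75.3, SRSF9 at 87.5 and 82.5, SRSF2 at 79.1 and 85.9, and SRSF4, the gene that rose, at 78.1 and 76.5. SRSF5 made up 25.6% and 25.5% of the summed SRSF level at 4 h and 18.1% and 15.4% at 8 h.

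The summed level of the 10 SRSF genes was 657 and 649 CPM per kilobase at 4 h and 517 and 490.1 at 8 h. The 20 hnRNP genes summed to 1178 and 1151 at 4 h and to 969 and 947 at 8 h. HNRNPA2B1 led at both times, with a mean of 202 CPM per kilobase at 4 h and 136 at 8 h. The summed level of the 4 CLK genes was lower by far, at 87.7 and 80.7 at 4 h and at 118 and 99.1 at 8 h, and CLK1 made up between 54.2% and 59.0% of it. The order within the family was CLK1, CLK3, CLK4 and CLK2 at both times. Mean values for CLK4 and CLK2 at 4 h were 7.43 and 7.14 CPM per kilobase, closer than their replicates. In bulk RNA, fewer cells that express a gene and less RNA per cell cannot be told apart.

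These levels depend on how reads were kept. Ungapped alignment misses reads that span splice junctions. The canonical transcript of CLK1 has 13 exons in 1847 bases, that of SRSF1 has 4 in 5343, and that of HNRNPA0 has 1 in 8713. The part of this loss in the levels was not tested. HNRNPA1, one of the most abundant nuclear proteins in many cells, reached only 12.9 CPM per kilobase at 4 h and 14.5 at 8 h. RefSeq lists 75 pseudogenes under its symbol, 17 for HNRNPA3 and 9 for HNRNPC, and reads that map to more than 1 position were not kept by the authors. The part of these copies in the levels was not tested. Of the 36 genes, 23 have at least 1 such pseudogene. Exons of 9 overlap exons of another listed gene on the opposite strand, for example CBX3 and NFE2L3 for HNRNPA2B1, NFE2L2 for HNRNPA3 and EDC3 for CLK3. Whether strand was used in counting is not given in the sources used here.

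Annotated splice variants were common among these genes. In GENCODE, 29 of the 36 have at least 1 transcript classed as a target of NMD (80.6%), against 48.2% of 11693 retained protein-coding genes with an annotation. All 12 tested SRSF and TRA2 genes have one, as do 14 of 20 hnRNP genes and 3 of 4 CLK genes. The 36 genes also have more annotated transcripts of any kind, with a median of 13.5 against 8. A transcript with a retained intron is annotated for 61.4% of the retained protein-coding genes and for 29 of the 36 (80.6%). Among the CLK genes it is annotated for CLK1, CLK3 and CLK4, with 8, 8 and 7 such transcripts, respectively. For CLK2 there is neither kind. Counts were made per gene, so a change in the share of these variants cannot be told apart from a change in the coding transcript.

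Stretches before the start site are shown for 4 genes that moved in different directions, SRSF5 and HNRNPA3, which fell, and SRSF4 and CLK4, which rose. The sequences are the 250 bases before the start site in RefSeq on GRCh38.p14, 5′ to 3′ on the strand of the gene, at chr14:69766892-69767141 (plus), chr2:177212544-177212793 (plus), chr1:29181901-29182150 (minus) and chr5:178627051-178627300 (minus). Capitals mark matches, on either strand, to the CCAAT box (CCAAT), the E-box (CACGTG), the ETS motif (CCGGAAG) and the GC box (GGGCGG). They also mark E2F motifs, searched as TTTCCCGC, as TTTCGCGC, as TTTGCCGC and as TTTGGCGC.
SRSF5: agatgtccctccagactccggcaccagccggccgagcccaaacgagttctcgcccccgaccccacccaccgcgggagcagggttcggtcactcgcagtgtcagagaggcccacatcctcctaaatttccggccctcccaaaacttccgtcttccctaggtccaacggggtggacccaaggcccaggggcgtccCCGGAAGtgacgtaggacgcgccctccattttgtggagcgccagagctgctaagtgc
HNRNPA3: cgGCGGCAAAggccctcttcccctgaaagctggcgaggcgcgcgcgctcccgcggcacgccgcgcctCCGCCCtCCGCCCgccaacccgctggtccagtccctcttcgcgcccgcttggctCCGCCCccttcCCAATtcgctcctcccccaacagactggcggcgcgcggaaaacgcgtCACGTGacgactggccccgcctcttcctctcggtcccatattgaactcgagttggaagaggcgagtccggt
SRSF4: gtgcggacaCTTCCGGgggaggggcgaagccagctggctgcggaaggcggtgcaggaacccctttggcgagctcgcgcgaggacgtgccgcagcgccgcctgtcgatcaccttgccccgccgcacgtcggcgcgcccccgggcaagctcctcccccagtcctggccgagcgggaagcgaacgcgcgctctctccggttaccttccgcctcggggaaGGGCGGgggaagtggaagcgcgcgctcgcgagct
CLK4: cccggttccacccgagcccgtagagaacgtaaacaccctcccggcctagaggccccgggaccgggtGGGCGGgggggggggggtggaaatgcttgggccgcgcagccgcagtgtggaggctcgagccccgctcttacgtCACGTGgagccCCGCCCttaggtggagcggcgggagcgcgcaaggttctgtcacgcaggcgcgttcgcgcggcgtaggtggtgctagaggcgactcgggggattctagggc

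RefSeq windows were found for 33 of the 36 genes, and not for SRSF2, HNRNPA1 and TRA2A. For 11 of the 33 more than 1 window is listed, and only the first listed window of each gene was searched. The ETS motif was found in 2 of the 18 windows of genes that fell, among them SRSF5, and in 1 of the 5 of genes that rose, SRSF4. It was in 5 of the 33 in all, or 15.2%, against 8.82% of all windows and 16.4% of those of retained genes. GC boxes were found in 9 of the 18 windows of genes that fell and in 4 of the 5 of genes that rose. They were in 22 of the 33 in all, or 66.7% (42.3% of all 27305 windows, and 68.4% of those of retained genes). The E-box was found in 3 of 18 and 1 of 5, in 7 of the 33 in all (6.49% of all windows and 8.97% of those of retained genes). E2F letters were found in 3 of 18 (HNRNPA3, SRSF10 and TRA2B) and 0 of 5, in 5 of the 33 in all (2.79% of all windows and 4.63% of those of retained genes). The other genes with E2F letters, HNRNPK and HNRNPLL, neither fell nor rose. CCAAT was found in 7 of 18 and 2 of 5. It was in 14 of the 33 in all, or 42.4% (33.0% of all windows and 35.3% of those of retained genes). The CRE (TGACGTCA) and the NRF1 motif were found in none of the 33, against 1.77% and 1.13% of all windows and 2.97% and 2.04% of those of retained genes. TATAAA was found in 3 of 18 and 1 of 5, in 5 of the 33 in all (11.1% of all windows and 4.85% of those of retained genes). A match describes letters only.

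Other genes of the splicing pathway were taken as 6 lists. Among the kinases of SR proteins other than CLK, 6 of 8 were tested, 2 rose and 1 fell. On these 6 genes the shares were 33.3% and 16.7%, against 19.9% and 18.8% of all genes. SRPK1, which phosphorylates SR proteins in the cytoplasm, fell from 104 and 101 CPM to 86.0 and 82.3 (log2FC −0.29, standard error 0.09, edgeR adjusted p = 0.0113). DYRK1B and DYRK1A, kinases that localize to the nucleus, rose by a log2FC of 0.50 and 0.44 (edgeR adjusted p = 0.00274 and 0.00127). SRPK1 thus moved opposite to CLK1, CLK3 and CLK4, whereas SRPK2 did not pass (log2FC 0.01, standard error 0.10, edgeR adjusted p = 0.947).

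The 32 RS-domain proteins outside the SRSF and TRA2 families were divided. Of these, 9 fell (28.1%) and 7 rose (21.9%), against 18.8% and 19.9% of all genes, with a median log2FC of 0.0031. PNN (pinin), which associates with the exon junction complex, was a DEG. Its 4 h libraries had a CPM of 119 and 127 and its 8 h libraries of 60.0 and 56.6 (log2FC −1.07, standard error 0.09, edgeR adjusted p = 2.98e-08). LUC7L3, a factor of the U1 snRNP, had a log2FC of −0.80. CCNL1, a cyclin that partners CDK11 kinases, and SCAF4, which binds RNA polymerase II, rose with a log2FC of 0.63 and 0.61.

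The lists of RNA-binding regulators had more falls than rises. Of 8 hnRNP proteins with other symbols, 3 fell and 1 rose (18.8% and 19.9% of all genes). RBMX (hnRNP G) fell with a log2FC of −0.50 and PCBP2 (hnRNP E2) rose with 0.25. Among 31 further RNA-binding splicing regulators, 12 fell (38.7%) and 5 rose (16.1%), with a median of −0.16. SFPQ, a paraspeckle protein, was a DEG, with 164 and 143 at 4 h and 64.1 and 74.8 at 8 h (log2FC −1.14, standard error 0.10, edgeR adjusted p = 3.48e-08), and TARDBP (TDP-43) had a log2FC of −0.95. PTBP3 and MBNL2 rose with 0.82 and 0.64.

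Most components of the splicing machinery itself did not pass. Of 52 core spliceosome genes, 10 fell and 5 rose, and 37 did not pass, with a median log2FC of −0.09. Its share of 19.2% lower was near the 18.8% of all genes, and 9.62% were higher. SNRNP40 (of the U5 snRNP) and SNRPD1 (an Sm protein) fell the most, with −0.67 and −0.62, and LSM7 and SNRNP27 rose with 0.63 and 0.53. LSM7 had a CPM of 16.8 and 18.4 at 4 h and of 21.1 and 33.8 at 8 h, so its 8 h libraries lay apart. Of 15 genes of NMD and the exon junction complex, 4 fell, with UPF3B at −0.81 and RBM8A at −0.79, and 2 rose, UPF2 at 0.33 and CASC3 at 0.25. Of the 144 tested genes of the 6 lists, 39 fell and 22 rose (18.8% and 19.9% of all genes), and with library size alone 58 fell and 17 rose (26.2% and 13.5% of all genes).

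**Figure D4:**
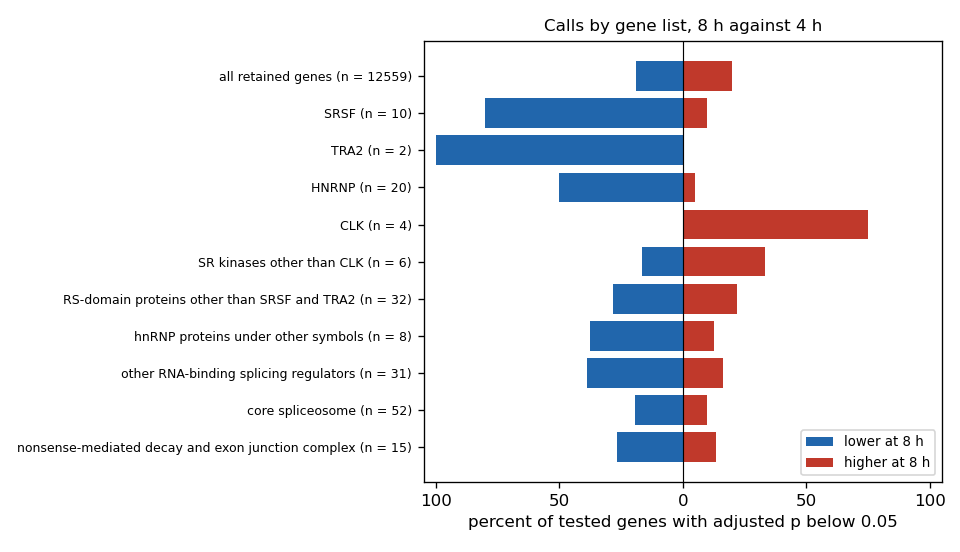
Share of tested genes that fell (blue, to the left) or rose (red, to the right) at adjusted p below 0.05, in percent, for all retained genes, the 4 families and the 6 other splicing lists. All genes show 18.8% lower and 19.9% higher. SRSF (80% lower), TRA2 (100% lower) and HNRNP (50% lower) bars point left, and the CLK bar (75% higher) points right, on 10, 2, 20 and 4 genes.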

How the data were processed

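RNA-Seq was analysed in 4 libraries of hTERT RPE-1 cells, 2 at 4 h and 2 at 8 h of merbarone. The authors mapped reads to hg19 with Bowtie (version 1.2.0 in the submitters' processing notes), retaining uniquely mapping reads, and deposited raw counts per gene by NCBI Gene ID. The counting tool, annotation and use of strand are not given in the sources used here. Ungapped alignment misses reads that span splice junctions, and the rule of unique positions misses reads from near-identical copies.

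Of 23459 genes in the deposited counts, the 12559 that exceeded a CPM of 1 in 2 or more libraries entered the test, TMM factors were calculated, and 8 h was compared with 4 h by edgeR 4.0.16 (R 4.3.3; quasi-likelihood test, time as the only term). Standard errors are the log2FC divided by the square root of F. Limma-Voom (limma 3.58.1, the authors' test), DESeq2 1.42.0, other scalings, filters and thresholds, a replicate block and leaving out each library were alternatives. The abundance correction used a loess offset (span 0.3) of each library on mean log2-CPM. Tests were checked on simulated counts. With 2 libraries per time, an exact permutation test cannot go below 0.333, so p-values rest on a spread shared across genes (biological coefficient of variation 6.52%), which may be technical.

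Symbols came from RefSeq (GRCh38.p14) for 23308 genes. Positions, canonical lengths and transcript classes came from GENCODE on GRCh37, the assembly of hg19, matched by symbol for 40 of the 41 genes. The members and gene lists were chosen with earlier results of these data known. CLK and TRA2 genes and the 6 SRSF and 8 HNRNP genes with the largest absolute log2FC are described library by library, and of each other list up to 2 called genes per direction are named, except for 1 gene that is not reported here.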

Additional observations from a re-analysis of the deposited data

How the results depend on the processing

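The number of genes that fell was 17 at an adjusted p below 0.01. In the refits with all 4 libraries it stayed between 17 and 23, against 20. Of these 20 genes, 14 were called in each of the 12 refits. In the refits with all 4 libraries, the share of all genes that fell ranged from 11.9% (DESeq2) to 26.2% (library size alone). The share of all genes that rose ranged from 13.5% (library size alone) to 22.5% (replicate block). The number of members that rose was 5. It was 3 with DESeq2, 2 with library size alone, 3 with the abundance correction and 2 at an adjusted p below 0.01. With 1 library left out, the log2FC of CLK1 ranged from 0.14 to 0.52 and that of CLK4 from 0.25 to 0.66. HNRNPC ranged from 0.17 to 0.32, CLK3 from 0.48 to 0.51 and SRSF4 from 0.49 to 0.56. DEGs numbered 0, and 1 (SRSF5) with library size alone, with the abundance correction and in 1 of the 4 fits with a library left out (range 0 to 1). Leaving out a library leaves 1 at that time, assumed to vary like the rest.

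Signs turned for 5 genes, none of which passed. CLK2 was at −0.10 with library size alone, at −0.0014 with a CPM minimum of 2, and from −0.10 to 0.11 with 1 library left out. HNRNPF was at −0.066 and −0.090, and HNRNPL at −0.032 and −0.033, with library size alone and the abundance correction, and HNRNPA0 at −0.027 with the latter. With 1 library left out, HNRNPF ranged from −0.020 to 0.095 and SRSF11 from −0.14 to 0.030. The cause was not tested. Deviations of same-numbered libraries had a correlation of 0.048, so the numbers give little sign of pairing. With the replicate block 21 genes fell, HNRNPK being added, and 5 rose. At a CPM near 7, as for HNRNPA1L2, counts limit the precision.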
